A study of Mus musculus with 9 samples.

Results

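The cadherins and protocadherins were followed through single-cell RNA sequencing of mouse forelimb buds. Members were the gene symbols made of *Cdh* and a number, of *Pcdh* and a number with or without an x, or of the *Pcdha*, *Pcdhb* and *Pcdhg* cluster names and a number. This rule took 92 of 32289 features: 23 cadherins, 12 protocadherins outside the clusters, and 14 alpha, 22 beta and 21 gamma members of the clustered protocadherins. Pairs of forelimb buds were dissected at E10.75 (37 to 39 somites) from wild-type (Wt) embryos, from E1C8Δ/Δ embryos, which lack the regulatory regions EC1 and CRM8 of the *Grem1* landscape on both alleles, and from E1C5Δ/Δ embryos, which lack EC1 and CRM5. *Grem1* encodes a secreted antagonist of bone morphogenetic proteins. There were 3 libraries per genotype, each from 1 pair of forelimb buds, and embryos of both sexes, bred into a Swiss Albino background, were used.

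Classical cadherins are calcium-dependent adhesion proteins that bind the same cadherin on a neighbouring cell and are tied to actin by catenins inside the cell. E-cadherin (*Cdh1*) and P-cadherin (*Cdh3*) are known from epithelia, VE-cadherin (*Cdh5*) from endothelium, M-cadherin (*Cdh15*) from muscle, and N-cadherin (*Cdh2*) and OB-cadherin (*Cdh11*) from mesenchyme. Protocadherins have more extracellular cadherin repeats and other cytoplasmic tails; the alpha, beta and gamma genes lie in tandem on 1 chromosome, and in alpha and gamma each variable first exon is spliced to constant exons shared by the whole cluster.

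After filtering and removal of doublets, 44654 cells were left, 592 to 8699 per library, with medians of 16822 to 47699 unique molecular identifiers (UMIs) per cell. Cells were assigned by markers that include no member: 36024 were mesenchyme, 2083 muscle progenitors, 599 ectoderm, 659 endothelium, 2191 erythroid and 201 macrophages, and 2881 were ungated. Levels are UMIs per 1000000 UMIs (CPM), with UMIs summed over the cells of a type in a library, for libraries with at least 20 such cells; 3′ UMI counts were not divided by gene length. The 5 mesenchymal markers together reached 1467 to 1839 CPM in mesenchyme, and *Grem1* fell in both mutants: it was at 43.0, 29.5 and 32.2 CPM in Wt, 11.5, 11.3 and 14.2 in E1C8Δ/Δ, and 17.5, 16.2 and 25.1 in E1C5Δ/Δ mesenchyme, with no overlap between Wt and mutants (log2 difference from Wt −1.50, adjusted p = 0.0017, and −0.78, adjusted p = 0.047, by edgeR). The 2 smallest libraries held fewer than 1000 cells, Wt replicate 3 with 897 and E1C8Δ/Δ replicate 1 with 592.

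Most members were at or near 0. No UMI was found for 1 beta member, 47 stayed below 1 CPM on average in every Wt cell type, 23 reached 1 to 5 CPM and 22 reached 5 CPM or more in at least 1 type. The 22 were 9 cadherins, 8 protocadherins outside the clusters, 1 beta and 4 gamma members. All 14 alpha members stayed below 1 CPM. The 14 alpha genes end at a single 3′ end in the annotation, as do the 21 gamma genes, and a 3′ read in shared exons is counted for no single gene, so the levels of alpha and gamma members rest on the reads outside those exons and are uncertain; beta genes each have their own end.

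The promoters of 3 members that stood apart by cell type or by position are shown because they carry the patterns described below: *Cdh15* in muscle progenitors, *Pcdh19* in muscle progenitors and anterior mesenchyme, and *Cdh22* in distal mesenchyme. Sequences are RefSeq's, in GRCm38.p6, from 250 bases before to 50 bases after the start of the gene, 5′ to 3′ on the strand of the gene. They lie at chr8:122848124-122848423 (+), chrX:133688944-133689243 (−) and chr2:165234688-165234987 (−). The annotation used for the 3′ ends places the start of *Cdh15* at chr8:122847966, upstream of its whole window. It places that of *Cdh22* at chr2:165234853. Capitals mark the E-box CANNTG, the core motif of basic helix-loop-helix factors, which reads the same on both strands. Which factors bind these boxes, if any, was not tested.
Cdh15: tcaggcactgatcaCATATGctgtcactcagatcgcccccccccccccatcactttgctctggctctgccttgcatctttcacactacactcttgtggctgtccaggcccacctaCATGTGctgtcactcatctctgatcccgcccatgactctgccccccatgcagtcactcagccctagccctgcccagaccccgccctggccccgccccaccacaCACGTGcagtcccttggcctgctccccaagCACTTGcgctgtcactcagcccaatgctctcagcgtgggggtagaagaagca
Pcdh19: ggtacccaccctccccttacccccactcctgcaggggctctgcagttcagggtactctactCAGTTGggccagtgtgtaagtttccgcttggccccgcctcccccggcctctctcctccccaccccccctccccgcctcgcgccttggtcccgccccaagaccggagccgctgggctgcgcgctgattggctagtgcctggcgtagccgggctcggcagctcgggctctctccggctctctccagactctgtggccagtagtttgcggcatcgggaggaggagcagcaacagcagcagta
Cdh22: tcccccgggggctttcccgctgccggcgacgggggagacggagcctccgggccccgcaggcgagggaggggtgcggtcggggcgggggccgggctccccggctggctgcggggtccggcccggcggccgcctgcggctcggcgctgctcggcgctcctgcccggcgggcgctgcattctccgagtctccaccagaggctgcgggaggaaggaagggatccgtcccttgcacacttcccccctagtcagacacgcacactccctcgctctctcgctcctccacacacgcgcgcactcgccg
*Cdh15* held 4 E-boxes in this window, *Pcdh19* 1 and *Cdh22* 0. Of 32851 promoters of the same length, 72.3% held at least 1 and 6.49% held 4 or more. The table of promoters matched 22 of the members.

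In mesenchyme, *Cdh11* was the most abundant member. Its Wt mean was 188 ± 32 CPM (SD, n = 3), followed by *Pcdh18* with 73.9 ± 9.1 CPM, *Cdh2* with 55.2 ± 2.4 CPM, *Cdh3* with 19.1 ± 2.3 CPM and *Pcdh10* with 18.3 ± 5.7 CPM, the last 2 overlapping. The ranges of *Cdh11* (130 to 225 CPM) and *Pcdh18* over the 9 libraries did not overlap, and *Pcdh18* and *Cdh2* had overlapping ranges, from 56.7 to 85.5 and from 43.9 to 66.0 CPM. Below these came *Pcdh7* (15.8 CPM), *Cdh24* (12.9 CPM), *Cdh6* (12.8 CPM), *Pcdh19* (11.9 CPM) and *Pcdh17* (9.83 CPM), whose ranges over libraries overlap, and then the gamma members *Pcdhga12* (7.45 CPM) and *Pcdhgc3* (6.02 CPM). The 92 members together took 364 to 538 CPM in mesenchyme, 422 to 627 in muscle progenitors, 310 to 425 in ectoderm and 982 to 1391 in endothelium, but 11.5 to 33.9 in erythroid cells and 21.6 to 33.9 in macrophages.

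Endothelium, ectoderm and muscle progenitors were each marked by a cadherin that was low in mesenchyme. In endothelium, *Cdh5* lay between 535 and 808 CPM with a median of 589 over 7 libraries, against 0.220 to 0.960 with a median of 0.395 over 9 libraries of mesenchyme. In ectoderm, *Cdh1* lay between 64.8 and 106 CPM with a median of 77.8 over 6 libraries, against 0.0586 to 0.319 with a median of 0.123 in mesenchyme. In muscle progenitors, *Cdh15* lay between 2.43 and 40.9 CPM with a median of 9.14 over 8 libraries, against 0.0609 to 2.15 with a median of 0.697 in mesenchyme. None of these ranges overlap, but those of *Cdh15* lie close, at 2.43 and 2.15 CPM, whereas *Cdh5* and *Cdh1* stand far above mesenchyme in the heat map of members by cell type.

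**Figure D1:**
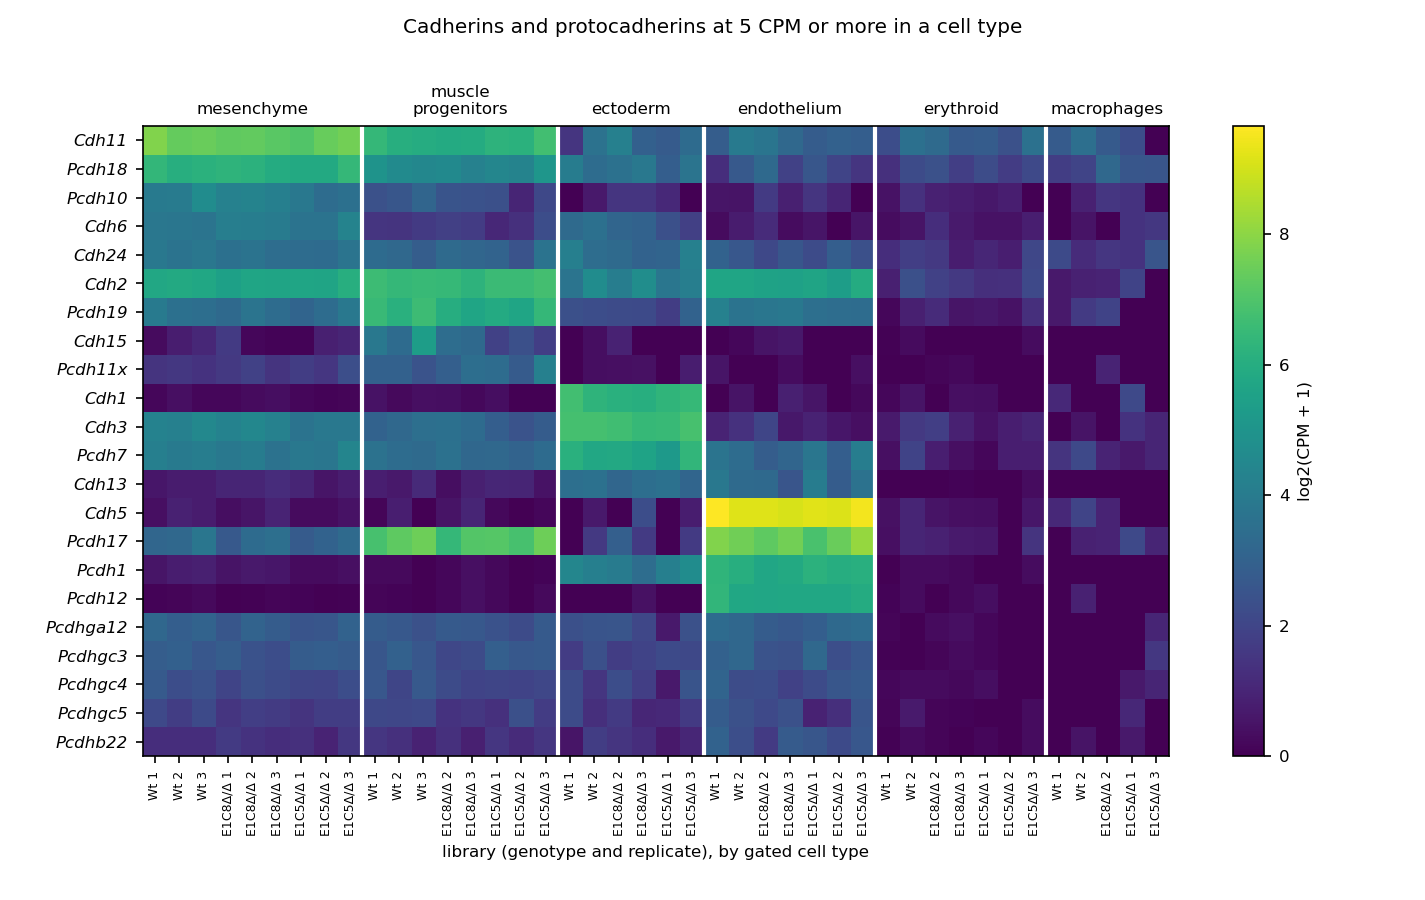
Level of the 22 members that reached 5 CPM in a Wt cell type, as log2(CPM + 1), with 1 column per library and the columns grouped by gated cell type; libraries with fewer than 20 cells of a type are left out. *Cdh5* and *Pcdh12* are bright in endothelium, *Cdh1* in ectoderm, *Pcdh17* in muscle progenitors and endothelium, and *Cdh11* and *Pcdh18* in mesenchyme, while the sum over all members is at most 33.9 CPM in erythroid cells and macrophages.

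Types were compared with mesenchyme by edgeR's quasi-likelihood test on summed UMIs, with the library as a block and p-values were adjusted by the Benjamini-Hochberg method across the 13487 genes that passed the low-count filter; a called gene has an adjusted p under 0.05. The filter left 34 members, each called in at least 1 type; 14 were after thinning to 5000 UMIs, and 66 members were without the filter. Of the 34, 17 were called in muscle progenitors (6 higher, 11 lower; 44.5% of all genes were called), 20 in ectoderm (5 higher, 15 lower; 56.4%) and 22 in endothelium (11 higher, 11 lower; 73.3%). In erythroid cells 30 were called, 29 of them lower (79.7% of all genes), and in macrophages 29, 28 of them lower (71.3%). The median log2 difference from mesenchyme was −0.19 over the members and −0.08 over all genes in muscle progenitors, −0.57 and −0.07 in ectoderm, 0.05 and −0.08 in endothelium, −3.35 and −0.24 in erythroid cells and −3.91 and −0.12 in macrophages.

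The adhesion molecules of the epithelium formed a small group in ectoderm. *Cdh1* was higher than in mesenchyme by 8.71 ± 0.24 on the log2 scale (SE, adjusted p = 8.05e-29), and *Cdh3* by 2.62 ± 0.12 (adjusted p = 4.1e-21). *Cdh3* lay at 88.2 to 114 CPM in ectoderm, with a median of 107, and at 11.8 to 21.7 CPM in mesenchyme, with a median of 17.7. Unlike *Cdh1*, it was therefore present in both layers. The other 3 members higher in ectoderm were *Pcdh1* (5.26), *Cdh13*, the cadherin anchored in the membrane by a lipid (3.53), and *Pcdh7* (1.86). *Cdh11* (−4.21), *Pcdh10* (−4.08), *Pcdh18* (−2.66) and *Cdh2* (−1.56) were lower.

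Endothelium shared part of this set. *Cdh5* was higher than in mesenchyme by 10.47 ± 0.22 and *Pcdh12*, known from endothelium, by 9.81 ± 0.18 (adjusted p = 7.5e-34 and 1.1e-35). *Pcdh12* lay at 51.4 to 80.4 CPM with a median of 53.1 in endothelium and at 0 to 0.172 in mesenchyme. *Pcdh1* (7.35) and *Cdh13* (3.75) were higher in endothelium as in ectoderm. *Pcdh17* was higher by 4.59 ± 0.13, at 118 to 276 CPM with a median of 189. *Cdh2* lay at 40.2 to 60.3 CPM in endothelium and was not called. The 2 beta members tested were higher in endothelium, *Pcdhb22* by 1.75 and *Pcdhb21* by 1.12, and the gamma members *Pcdhgc5* (0.77), *Pcdhga10* (0.47), *Pcdhgc4* (0.36) and *Pcdhga12* (0.33) were higher too, with adjusted p of 0.00071 to 0.038.

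Muscle progenitors, which migrate into the limb bud from the somites, were higher than mesenchyme in 3 cadherins and 3 protocadherins. *Pcdh17* lay at 85.4 to 184 CPM with a median of 137, against 5.53 to 12.8 in mesenchyme, a difference of 3.97 ± 0.12 on the log2 scale (adjusted p = 3.1e-27). *Pcdh19*, an X-linked protocadherin, lay at 50.5 to 97.5 CPM with a median of 66.5, against 7.65 to 14.6 (2.67 ± 0.11, adjusted p = 1.3e-22). Neither gene overlapped between the types. *Cdh15* (4.50 ± 0.38), *Pcdh11x* (1.94) and *Cdh2* (0.77) were higher as well, and *Cdh2* lay at 73.9 to 107 CPM. *Cdh6* (−2.72), *Pcdh10* (−1.82), *Pcdh18* (−1.55), *Cdh11* (−1.20) and *Cdh3* (−1.08) were lower, although *Cdh11* still lay at 58.9 to 107 CPM.

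Single cells were compared after each was thinned to 5000 UMIs, so that all had the same depth. A UMI of *Cdh5* was found in 82.7% to 97.0% of endothelial cells (92.3% to 100% with all UMIs) and in at most 0.521% of mesenchymal cells (3.32%). For *Cdh1* the shares were 20.2% to 35.7% of ectodermal cells (48.9% to 67.9%) and at most 0.252% of mesenchymal cells (1.24%). *Cdh11* was found in 38.6% to 56.6% of mesenchymal cells (80.2% to 92.0%), against 0% to 7.22% of erythroid cells (12.7% to 22.8%), a type that should lack it. *Cdh2* and *Cdh11* were found together in 7.88% to 14.8% of mesenchymal cells (43.5% to 73.3% with all UMIs), and the product of their separate shares was 7.89% to 14.3% (42.0% to 70.6%).

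Position within the mesenchyme was read from 3 scores, each the mean of standardised marker levels of one side minus those of the other, with cells cut into tertiles (3 equal parts, low, middle and high) within each library. The scores were distal (*Cyp26b1*, *Sall3*, *Lmo2*, *Wnt5a*) against proximal (*Rarb*, *Irx3*, *Meis2*, *Pkdcc*), posterior (*Hand2*, *Osr1*, *Shh*, *Prdm1*) against anterior (*Alx4*, *Boc*, *Pax1*, *Sox6*) and core (*Sox9*, *Col2a1*, *Sox5*, *Tbx15*, *Tbx18*) against peripheral (*Msx1*, *Lhx2*, *Asb4*, *Msx2*, *Rspo4*). No member is among them. A tertile is a range of a score, not a cell type, and 12.1% to 18.2% of cells lay within 0.1 SD of a cut. Distal cells were often peripheral as well, with 49.4% to 63.0% of the distal tertile in the peripheral tertile.

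Along the proximo-distal axis, 49 of 54 members tested were called, 5 higher and 44 lower in the distal tertile, where 67.0% of all genes were called. The median log2 difference was −0.60 over the members and 0.02 over all genes. *Cdh11* and *Cdh3* were the abundant members that rose distally. *Cdh11* lay at 71.7 to 116 CPM with a median of 93.1 in the proximal and at 216 to 335 CPM with a median of 255 in the distal tertile (1.58 ± 0.05, adjusted p = 5.6e-13). *Cdh3* went from 7.47 to 13.7 CPM with a median of 10.1 to 18.5 to 32.4 CPM with a median of 28.2 (1.41 ± 0.05, adjusted p = 2.9e-12). For both genes the tertiles did not overlap in the 9 libraries.

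*Cdh6*, a type II cadherin, had the opposite pattern. It lay at 18.2 to 32.0 CPM with a median of 26.2 in the proximal and at 4.76 to 10.9 CPM with a median of 6.26 in the distal tertile (−1.80 ± 0.07, adjusted p = 1.3e-11), again without overlap. *Pcdh8* (−2.69), *Pcdh10* (−1.51), *Pcdh9* (−0.92) and *Pcdh18* (−0.41) were lower distally, and so were *Cdh13* (−3.86) and *Pcdh11x* (−2.42) at low levels. *Pcdh8* lay at 1.13 to 5.25 CPM proximally and 0.120 to 0.979 CPM distally. *Cdh22* had the largest rise, 4.17 ± 0.36, but at 0 to 0.150 CPM in the proximal and 0.434 to 1.31 CPM in the distal tertile; it is below the level set for naming by position and was chosen after its values were seen. *Pcdh19* (0.31) and *Pcdh7* (0.27) were a little higher distally with overlapping tertiles, and the sign of *Pcdh7* turned in 1 of the alternative analyses.

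**Figure D2:**
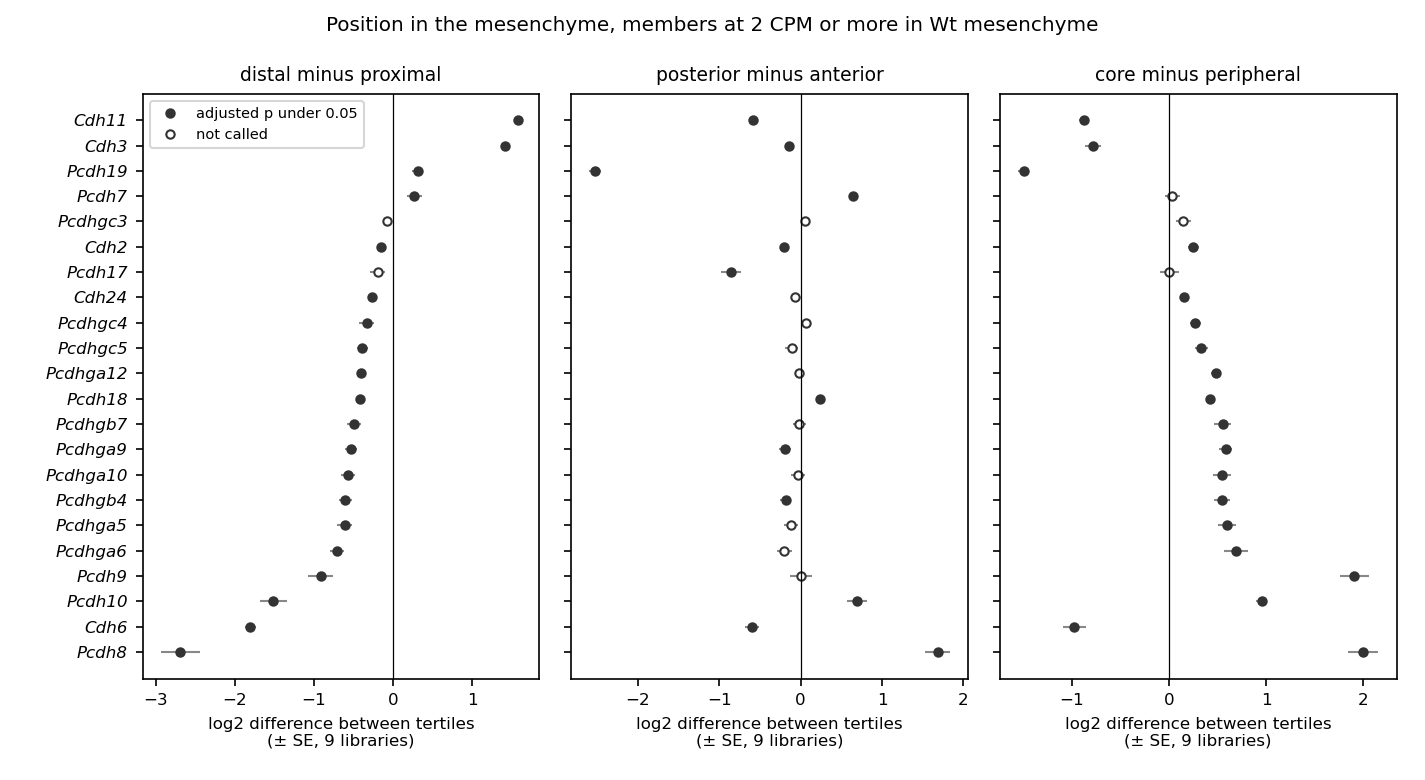
Log2 difference ± SE between the upper and lower tertile of each positional score, over 9 libraries, for the members with at least 2 CPM in Wt mesenchyme; filled points have an adjusted p under 0.05. *Cdh11* and *Cdh3* lie on the distal and peripheral side, *Pcdh8*, *Pcdh10* and *Pcdh9* on the proximal and core side, and *Pcdh19* has the largest difference between anterior and posterior.

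The antero-posterior axis involved fewer members. Of 53 tested, 20 were called, 7 higher and 13 lower in the posterior tertile, against 51.6% of all genes. *Pcdh19* was anterior in every library. It lay at 13.7 to 26.0 CPM with a median of 17.6 in the anterior and at 2.24 to 4.80 CPM with a median of 3.15 in the posterior tertile (−2.53 ± 0.07, adjusted p = 3.5e-14), with no overlap. *Pcdh17* (−0.85), *Cdh6* (−0.60), *Cdh11* (−0.59), *Cdh2* (−0.21) and *Cdh3* (−0.14) were lower posteriorly by less, as was *Pcdh11x* (−1.42). *Pcdh8* (1.68), *Pcdh10* (0.69), *Pcdh7* (0.64) and *Pcdh18* (0.23) were higher posteriorly, and so was *Cdh13* (1.37). *Pcdh8* lay at 0.461 to 2.34 CPM in the anterior and 1.42 to 8.17 CPM in the posterior tertile, with overlap between libraries.

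The core score, built on genes of the chondrogenic condensations, separated 42 of 53 members, 37 higher and 5 lower in the core tertile, where 67.2% of all genes were called. The median was 0.51 over the members and 0.00 over all genes. *Pcdh8* (2.00), *Pcdh1* (1.93), *Pcdh9* (1.91), *Pcdh11x* (1.23), *Pcdh10* (0.95), *Pcdh18* (0.42), *Cdh2* (0.25) and *Cdh24* (0.16) were higher in the core. *Cdh2* lay at 39.7 to 71.0 CPM in the peripheral and at 51.5 to 73.2 CPM in the core tertile, with overlapping ranges. *Pcdh9* lay at 0.649 to 2.09 CPM with a median of 0.858 in the peripheral and at 1.99 to 5.88 CPM with a median of 5.50 in the core tertile, and the 3 E1C5Δ/Δ libraries, at 1.99, 2.35 and 2.79 CPM, were the lowest in the core. The 5 members lower in the core were *Cdh22* (−3.02), *Pcdh19* (−1.50), *Cdh6* (−0.98), *Cdh11* (−0.88) and *Cdh3* (−0.78). *Pcdh19* lay at 12.5 to 23.0 CPM in the peripheral and 4.45 to 9.07 CPM in the core tertile.

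**Figure D3:**
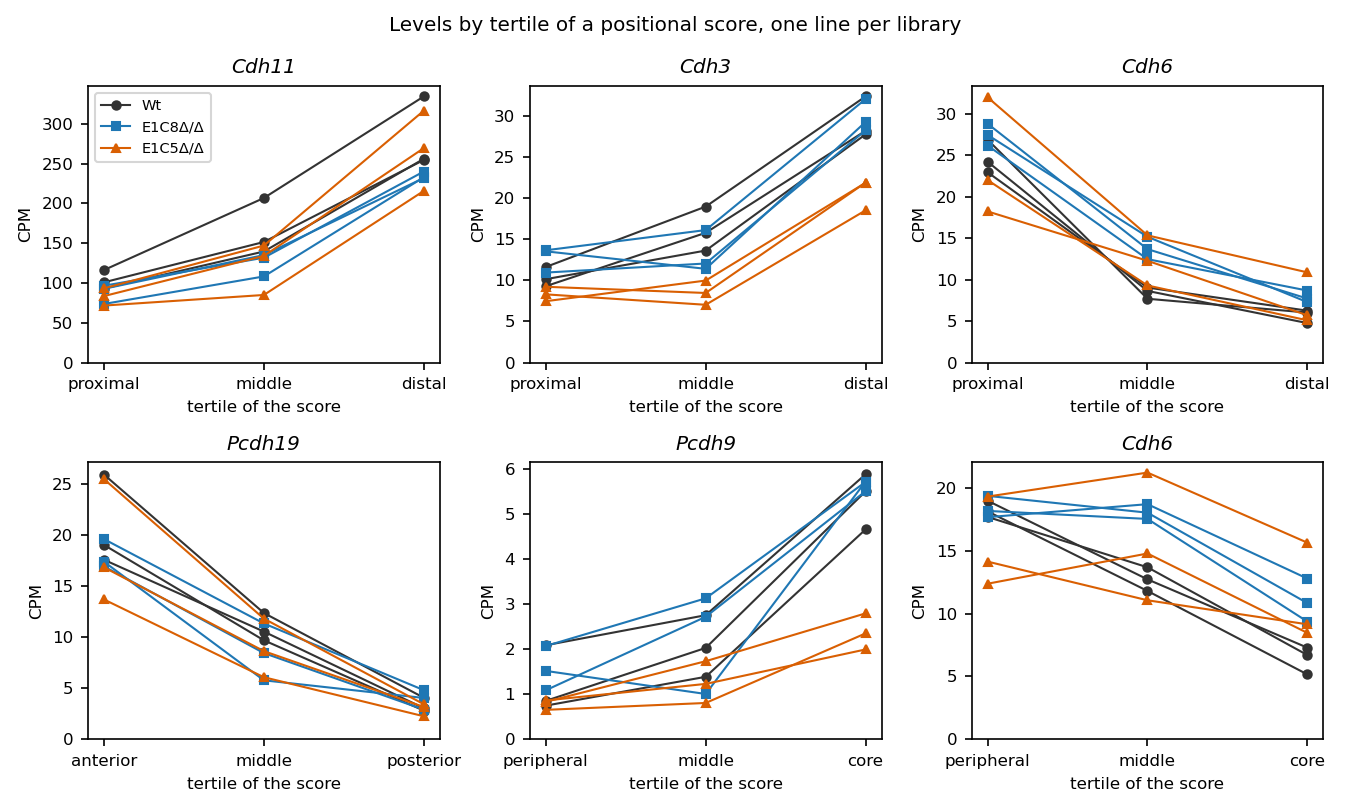
CPM in the 3 tertiles of a score, with 1 line per library coloured by genotype, for *Cdh11*, *Cdh3* and *Cdh6* along the proximo-distal score, *Pcdh19* along the antero-posterior score and *Pcdh9* and *Cdh6* along the core score. *Cdh11* rises from at most 116 to at least 216 CPM and *Pcdh19* falls from at least 13.7 to at most 4.80 CPM, and in the core tertile the Wt lines of *Cdh6* end at 5.15 to 7.28 CPM, below the mutant lines.

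The clustered protocadherins mostly differed in 1 direction per axis. All 12 beta members tested and 19 of 21 gamma members were lower in the distal tertile, with medians of −0.93 and −0.53, and 11 of 12 beta and 17 of 20 gamma members were higher in the core, with medians of 0.68 and 0.53. Of all genes, 4317 of 14387 were lower distally and 4713 of 14386 higher in the core. Between anterior and posterior, 1 of 12 beta and 3 of 21 gamma members were called, against 51.6% of all genes. The summed beta level had medians of 14.0, 9.36 and 6.33 CPM in the proximal, middle and distal tertiles, and the summed gamma level 48.6, 39.9 and 34.6 CPM. *Pcdhgc3* was not called on any axis. Most beta members are low, with 17 of 22 below 1 CPM in every Wt cell type. Depth moved with the distal and core scores, as given below, and its part in the cluster differences was not tested. The differences of single beta and gamma members overlapped on all axes, as the plot of the clusters in gene order shows, and the clusters were not tested against each other.

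**Figure D4:**
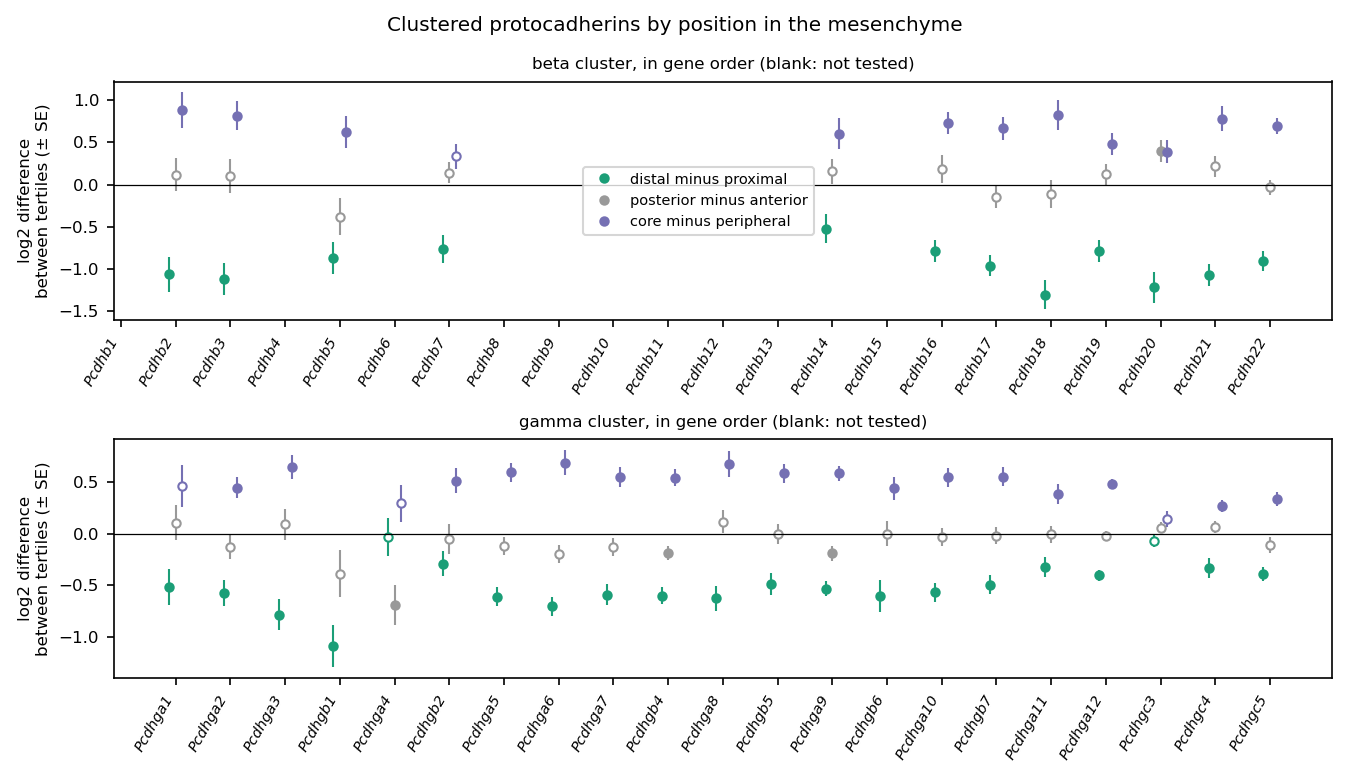
Log2 difference ± SE between tertiles for the beta and gamma members in their order along the chromosome, over 9 libraries; filled points have an adjusted p under 0.05 and members without points had too few counts. Distal differences lie between −1.30 and −0.03 and core differences between 0.15 and 0.88, while the antero-posterior differences scatter around 0.

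Depth moved with 2 of the scores. The median UMIs per cell were higher in the distal than in the proximal tertile in 9 of 9 libraries, by 1.10 to 1.29 times, and lower in the core than in the peripheral tertile in 9 of 9, at 0.780 to 0.936 times, while the posterior tertile was the deeper one in 3 of 9. With all cells thinned to 5000 UMIs, 26 of the 49 distal, 15 of the 20 posterior and 25 of the 42 core calls could still be tested, 26, 14 and 25 of them kept their direction and 23, 12 and 19 were called. After thinning, the distal difference was 1.39 for *Cdh11*, 1.19 for *Cdh3* and −1.50 for *Cdh6*, and the posterior difference of *Pcdh19* was −1.87. All of these were smaller than before thinning. That of *Pcdh8* shrank as well, from −2.69 to −1.29 distally and from 1.68 to 1.26 posteriorly, and that of *Cdh6* from −0.60 to −0.21 posteriorly. The core difference of *Pcdh9* was no smaller, at 1.98. Scores and tertiles were computed again from the thinned UMIs, so the cells of a tertile changed along with their depth. What part depth had in the remaining differences was not tested. Summed markers of muscle (2.61 to 7.47 CPM), endothelium (15.1 to 18.3 CPM) and ectoderm (4.09 to 8.21 CPM) in mesenchyme moved with the scores as well. Cells with at least 2 markers of another type, at 1 or more UMIs of them per 10000, had been left out of mesenchyme. The gate thus limited these sums. In the distal tertile endothelial markers were higher in 9 of 9 libraries (median 13.9 CPM proximally, 18.2 distally), muscle markers lower in 9 of 9 (5.18 and 2.77) and ectodermal markers higher in 3 of 9. In the core tertile ectodermal markers were higher in 9 of 9 libraries (median 5.04 CPM in the periphery, 6.95 in the core), muscle markers higher in 9 of 9 (3.10 and 4.17) and endothelial markers higher in 1 of 9 (17.7 and 14.0). In the posterior tertile ectodermal markers were higher in 1 of 9 libraries (median 6.25 CPM anteriorly, 5.00 posteriorly), muscle markers in 3 and endothelial markers in 4. The mesenchymal gate markers themselves were lower posteriorly (1996 and 1538 CPM) and in the core (1957 and 1454 CPM) in 9 of 9 libraries. The part of all these markers in the positional differences was not tested.

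The next comparison asked whether loss of *Grem1* regulatory regions goes with changed cadherins in the mesenchyme. All 9 libraries were fitted together, and members on the X chromosome were left out of the main tests because sex, read from *Xist* and genes of the Y chromosome, was partly confounded with genotype, with male embryos alone in Wt and female embryos in both mutants. Across both mutants, 0 of 64 members tested were called by edgeR, against 2.25% of 16162 genes; 8 members (12.5%, against 19.6% of all genes) had an unadjusted p under 0.05, and DESeq2 called 0. In E1C8Δ/Δ, edgeR and DESeq2 called 0 members against 9.66% of all genes with edgeR, and 10 members (15.6%, against 26.1% of all genes) had an unadjusted p under 0.05. None of the abundant members was called: the log2 difference of both mutants from Wt was −0.23 ± 0.11 for *Cdh11* (adjusted p = 0.28), −0.09 ± 0.09 for *Cdh2*, −0.09 ± 0.11 for *Pcdh18* and 0.24 ± 0.12 for *Cdh6*. With the X chromosome kept, *Pcdh19* differed by −0.20 ± 0.16 and *Pcdh11x* by 0.46 ± 0.21, with adjusted p of 0.55 and 0.26.

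In E1C5Δ/Δ mesenchyme, 3 members were lower than in Wt, *Cdh3*, *Pcdh9* and *Pcdh1*, against 1.55% of all genes called. *Cdh3* was at 18.3, 17.4 and 21.7 CPM in Wt, 18.6, 21.0 and 17.7 in E1C8Δ/Δ and 11.8, 13.5 and 13.7 in E1C5Δ/Δ. The E1C5Δ/Δ libraries lay below all 6 others, with a log2 difference from Wt of −0.49 ± 0.10 (adjusted p = 0.040). *Pcdh9* was at 2.67, 2.18 and 3.43 CPM in Wt, 2.62, 3.54 and 2.98 in E1C8Δ/Δ and 1.35, 1.19 and 1.72 in E1C5Δ/Δ (−0.88 ± 0.19, adjusted p = 0.048). *Pcdh1* was at 0.444, 0.721 and 0.785 CPM in Wt, 0.408, 0.571 and 0.487 in E1C8Δ/Δ and 0.231, 0.205 and 0.310 in E1C5Δ/Δ (−1.28 ± 0.27, adjusted p = 0.045). For both protocadherins, too, the E1C5Δ/Δ libraries lay below every other library. *Cdh3* and *Pcdh1* were members that were higher in ectoderm, but *Pcdh1* was higher still in endothelium (Wt means 19.0 and 72.3 CPM). The 7 ectodermal markers summed in mesenchyme were also lowest in E1C5Δ/Δ, with another order of Wt and E1C8Δ/Δ than *Pcdh1*. Their sums were 5.83, 6.83 and 5.88 CPM in Wt, 6.46, 8.21 and 7.88 in E1C8Δ/Δ and 5.67, 4.46 and 4.09 in E1C5Δ/Δ, with no marker at 0. The 8 endothelial markers summed to 15.1, 16.3 and 17.2 CPM in Wt, 18.3, 16.3 and 17.9 in E1C8Δ/Δ and 15.5, 16.2 and 15.6 in E1C5Δ/Δ. Wt and E1C5Δ/Δ overlap there. The mesenchymal gate limited both sums. The part of ectodermal or endothelial RNA in these differences was not tested.

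These 3 calls were close to the threshold. DESeq2 called 5 members lower, adding *Pcdh8* (−1.10, adjusted p = 0.021) and *Pcdh10* (−0.61, adjusted p = 0.043), while none was called after thinning, with embryo sex as a covariate, without the 2 smallest libraries (Wt replicate 3 and E1C8Δ/Δ replicate 1), or without any 1 of Wt replicates 2 and 3 and the 6 mutant replicates. Over all alternatives the differences kept their direction, at −0.54 to −0.41 for *Cdh3*, −1.001 to −0.60 for *Pcdh9* and −1.67 to −1.12 for *Pcdh1*.

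Set against each other from the same fit, a comparison added after the data were seen, the mutants differed in 4 members, all higher in E1C8Δ/Δ (9.77% of all genes were called). They were *Pcdh9* (1.04 ± 0.19, adjusted p = 0.011), *Cdh3* (0.48 ± 0.10, adjusted p = 0.018), *Cdh8* (1.29 ± 0.34, adjusted p = 0.037) and *Cdh10* (0.92 ± 0.25, adjusted p = 0.040). *Cdh10*, a type II cadherin, was at 1.71, 1.62 and 1.62 CPM in Wt, 1.34, 2.57 and 1.61 in E1C8Δ/Δ and 0.835, 0.733 and 1.28 in E1C5Δ/Δ. *Cdh8* was at 0.116, 0.362 and 0.282 CPM in E1C8Δ/Δ and 0.129, 0.0880 and 0.115 in E1C5Δ/Δ, so that these groups overlap, whereas those of the other 3 genes do not. Without E1C8Δ/Δ replicate 2 none of the 4 was called, without E1C8Δ/Δ replicate 3 *Pcdh9* alone was, without E1C5Δ/Δ replicate 1 or 2 there were 2 calls, and without Wt replicate 3 there were 6. *Cdh8* was not called by DESeq2 (adjusted p = 0.086) or with embryo sex as a covariate (0.055) and was not tested after thinning, and *Cdh10* was not called after thinning (0.069). DESeq2 called *Pcdhgc3* in the other direction (−0.49, adjusted p = 0.037) and *Pcdh8* and *Pcdh10* in the same one. With single libraries left out the difference lay between 0.94 and 1.15 for *Pcdh9*, 0.42 and 0.52 for *Cdh3*, 0.61 and 1.15 for *Cdh10* and 1.04 and 1.45 for *Cdh8*.

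**Figure D5:**
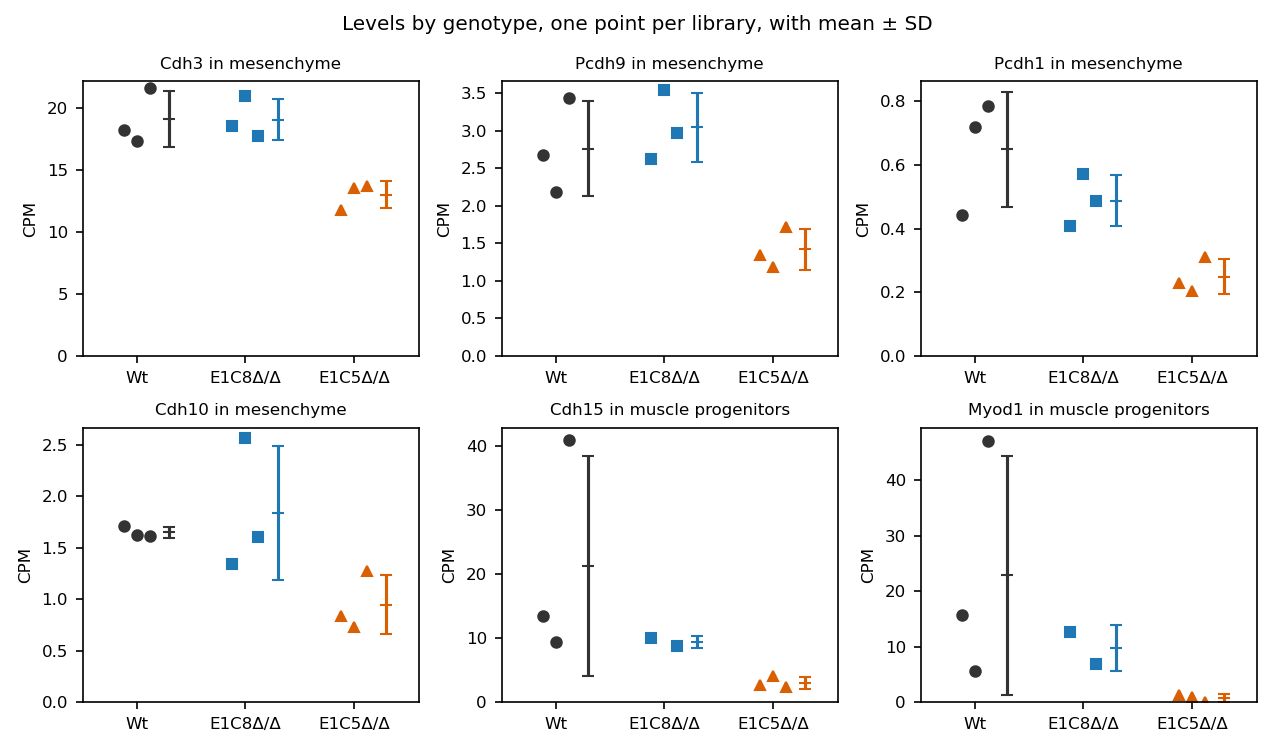
CPM of *Cdh3*, *Pcdh9*, *Pcdh1* and *Cdh10* in mesenchyme and of *Cdh15* and the muscle marker *Myod1* in muscle progenitors, with 1 point per library and the mean ± SD beside the points. The E1C5Δ/Δ points of *Cdh3* (11.8 to 13.7 CPM) lie below all Wt and E1C8Δ/Δ points (17.4 to 21.7 CPM), and *Cdh15* and *Myod1* share the order of the libraries at their extremes, with Wt replicate 3 highest.

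The positional differences themselves were compared between mutants and Wt by an interaction term. No member was called on the proximo-distal axis (0 of 54, against 0.410% of all genes; 7 members at an unadjusted p under 0.05, as 1540 of all 14387 genes; 0 with DESeq2) or the antero-posterior axis (0 of 53, against 0.453%; 5 members at an unadjusted p under 0.05, as 1699 of all 14339 genes; 0 with DESeq2). On the core axis 2 of 53 were called, against 0.827% of all genes. Tertiles were cut within each library. The authors reported the peripheral score genes as higher in both mutants in their cluster of hand-plate and digit progenitors. *Msx1*, *Lhx2*, *Asb4* and *Msx2* were also reported as higher in their posterior cluster. Genes of the other scores were reported as lower in the mutants, *Wnt5a* and *Hand2* in the hand-plate cluster and *Shh* by in situ hybridization. How far a tertile held like cells in each genotype was not tested on any axis. For *Cdh6*, the difference between core and periphery was smaller in the mutants, with an interaction of 0.81 ± 0.14 (adjusted p = 0.014). Its core tertile was at 7.28, 6.69 and 5.15 CPM in Wt, 12.8, 10.83 and 9.35 in E1C8Δ/Δ and 8.45, 9.14 and 15.6 in E1C5Δ/Δ, so that every mutant library lay above every Wt library, while the peripheral tertiles overlapped at 17.7 to 19.0 CPM in Wt and 12.4 to 19.4 CPM in mutants. Of the cells in the core tertile, 41.7%, 34.6% and 27.1% also lay in the proximal tertile in Wt. These shares were 47.8%, 39.1% and 43.1% in E1C8Δ/Δ and 46.2%, 46.9% and 55.7% in E1C5Δ/Δ. The part of these shares in the interactions on this axis was not tested.

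*Cdh3* moved the other way, with an interaction of −0.52 ± 0.11 (adjusted p = 0.039). Its core tertile was at 15.1, 16.03 and 23.4 CPM in Wt, 12.4, 16.6 and 12.6 in E1C8Δ/Δ and 9.98, 9.29 and 10.4 in E1C5Δ/Δ, and the E1C8Δ/Δ libraries overlap with Wt. After thinning, *Cdh3* was at −0.19 with an adjusted p of 0.89. Neither gene was called without Wt replicate 1, without Wt replicate 2 or without the 2 smallest libraries, and *Cdh3* was also lost without Wt replicate 3, E1C8Δ/Δ replicate 1 or 3, or E1C5Δ/Δ replicate 2. With single libraries left out, the interaction lay between 0.69 and 0.90 for *Cdh6* and between −0.64 and −0.41 for *Cdh3*.

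In the other cell types, both mutants were set against Wt. In muscle progenitors 1 of 36 members was called, against 0.866% of all genes. *Cdh15* was at 13.5, 9.46 and 40.9 CPM in Wt, 10.0 and 8.81 in E1C8Δ/Δ replicates 2 and 3, and 2.68, 4.10 and 2.43 in E1C5Δ/Δ; E1C8Δ/Δ replicate 1 had fewer than 20 such cells. The difference was −1.85 ± 0.39 (adjusted p = 0.048), the E1C5Δ/Δ libraries lay below all others and those of E1C8Δ/Δ overlap with Wt. It was not called without Wt replicate 3, without any 1 of the 5 mutant libraries, after thinning, or with embryo sex as a covariate. Without Wt replicate 3 the difference was −1.13 (adjusted p = 0.055), and without any other single library it lay between −2.25 and −1.73.

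The myogenic factors used as gate markers moved with *Cdh15*. *Myod1* was at 15.8, 5.70 and 47.0 CPM in Wt, 12.7 and 6.83 in E1C8Δ/Δ, and 1.41, 1.03 and 0 in E1C5Δ/Δ. *Myf5* was at 100.3, 57.2 and 103 CPM in Wt, 93.5 and 61.6 in E1C8Δ/Δ, and 28.8, 28.0 and 25.9 in E1C5Δ/Δ. *Pax7* was at 1.82 to 4.70 CPM in Wt and 0.577 to 1.27 in E1C5Δ/Δ, again without overlap. The other gate markers lay in other orders, *Lbx1* at 165 to 177 CPM in Wt and 195 to 228 in E1C5Δ/Δ, *Pax3* at 333 to 538 and 432 to 593, and *Met* at 116 to 148 and 102 to 126. The part of these factors in the difference was not tested.

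In ectoderm, edgeR called 0 of 12 members, against 0% of all genes, with 1 member, *Cdh6*, at an unadjusted p under 0.05 (−1.04 ± 0.33), where 4.44% of all genes were, and 0 called by DESeq2. In endothelium it called 0 of 26, against 0.00934% of all genes, again with 1 at an unadjusted p under 0.05, where 6.53% of all genes were, and 0 with DESeq2. *Cdh1* differed by −0.26 ± 0.16 in ectoderm and *Cdh5* by −0.20 ± 0.13 in endothelium. The ectoderm fit rested on 2 libraries per genotype, and that of endothelium on 2 of Wt, 2 of E1C8Δ/Δ and 3 of E1C5Δ/Δ. Hardly any gene was called in these types, so the lack of calls does not show that members were unchanged.

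The partners of the cadherins were read from 3 lists. Catenins and other junction proteins, which link cadherins to actin, numbered 20 of 22 tested in mesenchyme. In E1C8Δ/Δ 0 were higher and 5 lower, with a median of −0.22 over the list and −0.01 over all genes, of which 9.66% were called in E1C8Δ/Δ and 1.55% in E1C5Δ/Δ. The largest were *Ctnnal1* (−0.52), *Vcl*, which encodes vinculin (−0.47), and *Lima1* (−0.46). *Ctnnal1*, an alpha-catenin-like gene, was at 21.6, 22.8 and 21.9 CPM in Wt, 14.4, 16.3 and 15.9 in E1C8Δ/Δ and 20.8, 21.6 and 19.4 in E1C5Δ/Δ, with E1C8Δ/Δ below all others. In E1C5Δ/Δ none of the 20 was called. Of 14 other cadherin superfamily genes, 4 were lower in E1C8Δ/Δ, with *Clstn2* (−1.58), *Dchs1* (−0.62) and *Clstn1* (−0.44) as the largest, and 1 in E1C5Δ/Δ, *Clstn2* (−1.53). *Clstn2* was near 0, at 0.514 to 0.711 CPM in Wt, 0.0582 to 0.231 in E1C8Δ/Δ and 0.176 to 0.238 in E1C5Δ/Δ. *Dchs1*, a giant cadherin of planar polarity, was at 44.8, 40.8 and 43.8 CPM in Wt, 26.2, 32.0 and 26.9 in E1C8Δ/Δ and 30.8, 36.8 and 35.9 in E1C5Δ/Δ, and both mutants lay below Wt.

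Among 6 transcriptional repressors of *Cdh1*, 3 were higher and 1 lower in E1C8Δ/Δ. *Snai1* was at 28.5, 22.5 and 29.4 CPM in Wt, 63.7, 43.8 and 45.8 in E1C8Δ/Δ and 28.9, 28.7 and 28.4 in E1C5Δ/Δ (0.90 ± 0.13 for E1C8Δ/Δ, adjusted p = 0.0047), with every E1C8Δ/Δ library above all others. *Twist1*, which is also a mesenchymal gate marker, was higher by 0.40 and *Snai2* by 0.33, and *Zeb2* was lower by 0.73 on the log2 scale. None of the 6 was called in E1C5Δ/Δ. *Cdh1* itself stayed at 0.0586 to 0.319 CPM in the mesenchyme of all 9 libraries, and its difference was 0.13 ± 0.47 in E1C8Δ/Δ and −0.99 ± 0.47 in E1C5Δ/Δ, neither called.

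The same lists were read between cell types and positions, where the background is high: 56.4% of all genes were called in ectoderm, 73.3% in endothelium, 44.5% in muscle progenitors, 67.0% between distal and proximal, 67.2% between core and periphery and 51.6% between posterior and anterior. In ectoderm, 15 of 20 catenins and junction partners were higher and 3 lower than in mesenchyme, 8 of 10 other superfamily genes were higher and 1 lower, and 1 of 6 repressors was higher and 5 lower. In endothelium the counts were 10 higher and 7 lower, 1 and 5, and 2 and 4, and in muscle progenitors 6 and 4, 4 and 0, and 3 and 3. The repressors include *Twist1*, a mesenchymal gate marker. Cells of other types had to hold fewer than 5 UMIs of the mesenchymal markers per 10000. The gate thus favoured a lower level of *Twist1* in those types. In the distal tertile, 5 of 20 catenins and junction partners were higher and 8 lower, 1 of 10 other superfamily genes was higher and 6 lower, and 3 of 6 repressors were higher and 1 lower. In the core, 13 of 20 catenins and junction partners were higher and 2 lower, 9 of 11 superfamily genes higher and 0 lower, and 1 of 6 repressors higher and 3 lower, and in the posterior tertile 3 and 6, 3 and 6 of 11, and 4 and 2.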

How the data were processed

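The authors made 3′ single-cell libraries (10x Genomics, v3.1 chemistry) and deposited UMI counts per gene and barcode, made with Cell Ranger 6.0.1 on mm10 per the submitters' processing notes. Barcodes were kept above 2500 genes, below 200000 UMIs and below 10% mitochondrial UMIs, and doublets were removed by the share of artificial neighbours, at 0.8% per 1000 barcodes. A type needed at least 3 markers and 3 marker UMIs per 10000. These thresholds were set after the marker counts were seen. Mesenchyme also excluded cells with at least 2 markers of another type at 1 or more UMIs of them per 10000. UMIs were summed per library and type or tertile and tested with edgeR 4.0.16 (quasi-likelihood, TMM, Benjamini-Hochberg adjustment); DESeq2 1.42.0 was an alternative. The fits were tested on simulated counts. The members, gene lists and tests were chosen with earlier results of these data known. Named were members with 5 CPM in a Wt type, those called between genotypes in mesenchyme, those called by position with at least 2 CPM in Wt mesenchyme, *Grem1*, and up to 3 called genes per partner list and direction. Low members named beside these were chosen after their values were seen.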

Additional observations from a re-analysis of the deposited data

Results flagged for a closer look

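The mutants differed from each other in 4 of 64 members tested in the mesenchyme, where 9.77% of all 16162 genes were called. By a test of the difference itself, the log2 of E1C8Δ/Δ over E1C5Δ/Δ by edgeR was 1.29 for *Cdh8*, 0.48 for *Cdh3*, 1.04 for *Pcdh9* and 0.92 for *Cdh10*. Without E1C8Δ/Δ replicate 2 none of the 4 was called. The difference between core and periphery differed between mutants and Wt in 2 of 53 members, against 0.827% of all 14386 genes. The interaction term was −0.52 for *Cdh3* and 0.81 for *Cdh6*. Neither was called without Wt replicate 1, without Wt replicate 2 or without the 2 smallest libraries. Over the alternatives, the adjusted p of *Cdh6* ran from 4.6e-16 to 0.080 and that of *Cdh3* from 1.8e-08 to 0.89. No explanation was tested.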

How the results depend on the processing

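The count of 0 members across both mutants stayed at 0 in 19 alternatives, and no genotype or interaction call reversed. Of the calls by position and type, 3 turned in 1 alternative each: *Pcdh7* distally (0.27, to −0.016), *Pcdhgb4* posteriorly (−0.18, to 0.13) and *Cdh1* in macrophages (2.51, to −3.81). For E1C8Δ/Δ (0 calls) there was 1 without the 2 smallest libraries, and 0 to 1 when each library was left out. For E1C5Δ/Δ (3 calls), DESeq2 gave 5, and thinning to 5000 UMIs, the replicate block, embryo sex as a covariate and leaving out the 2 smallest libraries gave 0, with 0 to 2 when each library was left out. Between the mutants (4 calls), the replicate block gave 2 and leaving out libraries 0 to 6. In the other cell types (1 call), 0 were left without doublet removal, thinned, with the replicate block, with sex as a covariate, with X and Y kept and without the 2 smallest libraries, and 0 to 1 when each library was left out. Between cell types (34 members called in at least 1 type), 66 were called without the low-count filter and 14 after thinning. Thinning left 23 of 49 members on the distal, 12 of 20 on the posterior and 19 of 42 on the core axis. For the interaction (2 calls), no low-count filter gave 12, thinning 1, leaving out the 2 smallest libraries 0, and leaving out each library 0 to 3. The cause was not tested. Replicate numbers did not pair the libraries: deviations of same-numbered libraries correlated at −0.15 to 0.09. Low members rest on few UMIs, which limits what could be called.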
